A study of Homo sapiens with 21 samples.

Results

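The 10 genes described here are known direct targets of EWS/FLI or markers of Ewing sarcoma, and they were taken by name from the count table: NKX2-2, GSTM4, CAV1, STEAP1, PRKCB, BCL11B, VRK1, LIPI, PPP1R1A and CD99. They are 10 of the 57820 genes of the table, and all 10 were among the 30549 genes that passed the low-count filter. Transcripts were counted by RNA-seq in 21 libraries, 7 groups of 3, from A673, a cell line long established from an Ewing sarcoma. Every group received a retroviral shRNA on day 1 and a second retrovirus on day 5, under puromycin at 2 µg/ml and then also hygromycin at 400 µg/ml until day 16. The iLuc cells carried an shRNA against luciferase with an empty vector and kept their own fusion. The iEF cells carried an shRNA against the fusion transcript with an empty vector. The other 5 groups carried that same shRNA and a 3XFLAG-tagged cDNA: WT-EF is the wildtype EWS/FLI, DAF is full length with tyrosines of the amino-terminal EWS repeats changed to alanine, mut9 has a large internal deletion of EWS, DAF-mut9 carries tyrosine changes within that shortened form, and Δ22 lacks nearly all of EWS. Per the study's text, the 3 numbered replicates are repeats of the whole knockdown and rescue, all in 1 cell line. The p-values measure the spread that is left once average differences between the replicate sets are taken out. That spread was estimated over all 7 groups together, so a library of 1 group can affect a call between others.

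EWS/FLI joins the disordered, tyrosine-rich amino terminus of EWSR1 to the ETS DNA-binding domain of FLI1. It binds single ETS sites and also tracts of repeated GGAA, called microsatellites, where several copies of the fusion gather and switch on nearby genes. The 10 genes are among the transcripts most often used to read that activity, and they encode unlike proteins, from transcription factors and kinases to membrane proteins and enzymes.

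GGAA tracts lay close to the start of 3 of the 10 genes in the reference genome. A tract was counted where GGAA, or TTCC on the other strand, was repeated head to tail at least 4 times without a break. Within 5000 bases of the annotated start, such a tract was found for GSTM4, CAV1 and LIPI, and for 3.67% of all 19346 protein-coding genes. Within 100000 bases it was found for 9 of the 10 genes, BCL11B being the exception, and for 54.7% of protein-coding genes. Among the other target lists used below, 5 of 16 activated targets and 0 of 8 repressed targets had a tract within 5000 bases. The 4 sequences that follow are shown because they are the 3 tracts close to a start and the longest single run of the whole list, in GRCh37, 5′ to 3′ on the strand that reads GGAA, with the uninterrupted repeats in capitals and 20 flanking bases on each side.
GSTM4, chr1:110196838-110196950, plus strand: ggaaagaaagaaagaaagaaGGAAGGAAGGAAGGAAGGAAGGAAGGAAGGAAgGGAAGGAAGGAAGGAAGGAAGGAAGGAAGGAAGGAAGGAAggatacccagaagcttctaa
CAV1, chr7:116163101-116163310, plus strand: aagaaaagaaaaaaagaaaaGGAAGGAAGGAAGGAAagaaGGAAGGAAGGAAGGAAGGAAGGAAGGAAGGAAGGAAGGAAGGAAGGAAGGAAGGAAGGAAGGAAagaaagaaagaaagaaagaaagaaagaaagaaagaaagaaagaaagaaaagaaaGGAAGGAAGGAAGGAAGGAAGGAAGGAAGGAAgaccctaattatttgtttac
LIPI, chr21:15585593-15585676, minus strand: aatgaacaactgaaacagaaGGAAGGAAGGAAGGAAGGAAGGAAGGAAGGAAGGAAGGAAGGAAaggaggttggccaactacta
NKX2-2, chr20:21556902-21557021, minus strand: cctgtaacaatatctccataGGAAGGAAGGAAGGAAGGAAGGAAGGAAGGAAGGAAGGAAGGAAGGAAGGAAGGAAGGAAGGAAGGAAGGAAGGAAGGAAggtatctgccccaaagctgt

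The 4 tracts differ in make-up. The GSTM4 tract holds 18 repeats in 2 runs that a single base separates, 1.83 kb upstream of the start. The CAV1 tract, 1.84 kb upstream, holds 28 repeats in 3 runs, the longest of 16, and 0.134% of protein-coding genes have a run of that length or longer within 5000 bases. LIPI has 1 run of 11 repeats, 2.36 kb upstream. The NKX2-2 tract is 1 run of 20 repeats at 62.3 kb upstream, and 0.202% of protein-coding genes have a run that long within 100000 bases. The remaining genes have their longest runs farther away, at 54 kb for STEAP1 (17 repeats, downstream of the start), 36.3 kb for PPP1R1A (14 repeats, upstream) and 28.1 kb for VRK1 (11 repeats, upstream). PRKCB has 8 tracts within 100000 bases, the longest with 16 repeats. These are lengths in the reference genome, and those of the A673 alleles were not measured. Binding of the fusion was not measured in these libraries.

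**Figure D1:**
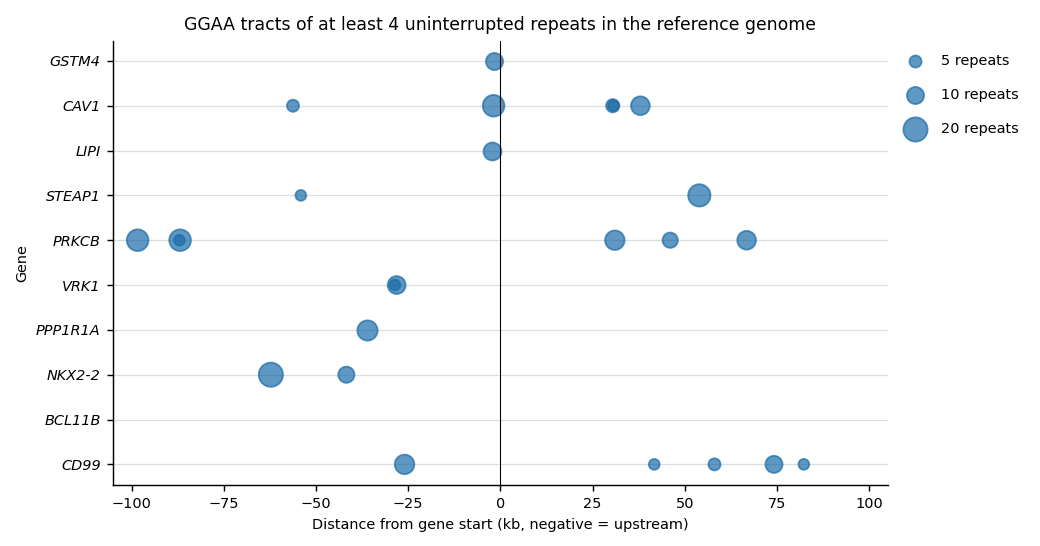
Position of GGAA tracts around the start of each of the 10 genes, as distance in kb (negative is upstream), with marker area set by the longest run of repeats in the tract; tracts no more than 60 bases apart on 1 strand are drawn as one. GSTM4, CAV1 and LIPI have a tract within 5 kb upstream of the start, BCL11B has none within 100 kb, and the longest run, of 20 repeats, lies 62.3 kb upstream of NKX2-2.

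Library totals ran from 32897083 to 46210348 counts. Levels are given in CPM, the count scaled for sequencing depth with TMM-adjusted library totals, and 1 CPM stood for 32 to 45.3 counts. In the check of the targeted gene, FLI1 was lowest in iEF, at 20 to 21.1 CPM, and stood at 60.6 to 89.1 CPM in iLuc. FLI1 also counts reads from the cDNAs. It was 21.9 to 26.5 CPM with WT-EF, 28.4 to 33.4 CPM with mut9, 41.3 to 62 CPM with Δ22, 35.2 to 39.8 CPM with DAF and 34.6 to 37.3 CPM with DAF-mut9. By the edgeR test described below, FLI1 was higher than iEF with mut9, DAF, DAF-mut9 and Δ22, but not with WT-EF. It was also higher with DAF than with WT-EF. These counts therefore do not tell WT-EF from iEF at FLI1. The part of construct level in the differences between constructs was not tested. The summed level of 4 Ewing sarcoma markers (NR0B1, PAX7, NKX2-2 and CD99, the last adding nearly nothing) was 112 to 152 CPM in iLuc and 16.1 to 29.2 CPM in iEF. No gene of the leukocyte, epithelial or endothelial marker lists exceeded 1.03 CPM in any library, with 8 of their 9 genes in the table and CD3E at 0 throughout.

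Depletion of EWS/FLI lowered 9 of the 10 genes, and the constructs restored these 9 to very different extents. The other gene, CD99, had too few counts to read. Relative to iEF, 9 genes were higher in each of iLuc, WT-EF and mut9, 7 were higher in DAF, 1 in DAF-mut9 and 0 in Δ22, in edgeR's quasi-likelihood test at a threshold of 0.05 on the p-value adjusted after Benjamini and Hochberg. Over all 30549 genes tested, the share called higher was 18.7% in iLuc, 11.4% in WT-EF, 6.22% in mut9, 3.41% in DAF, 1.26% in DAF-mut9 and 0.881% in Δ22. CD99 was left out of the medians, because its counts of 0 to 8 are too few to read. Over iEF, the median log2 fold change of the other 9 genes was 2.96 in iLuc, 1.93 in WT-EF and 1.46 in mut9. It was 0.94 in DAF, 0.16 in DAF-mut9 and 0.23 in Δ22. The median over all genes tested lay between -0.03 and 0.02 in these comparisons. None of the 10 was called lower than iEF in any of these groups. The 6 comparisons share the iEF libraries, so their values are not independent of one another. For Δ22, 2 of the 10 genes (CAV1 and CD99) had an unadjusted p-value below 0.05 in the edgeR test, and DESeq2 and the edgeR fit with no low-count filter each called 1. Over all genes, 4276 had an unadjusted p-value below 0.05 for Δ22 and 817 were called in either direction, a number that fell to 185 without Δ22 replicate 3, 291 without iEF replicate 3, 393 without Δ22 replicate 2 and 426 without Δ22 replicate 1.

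**Figure D2:**
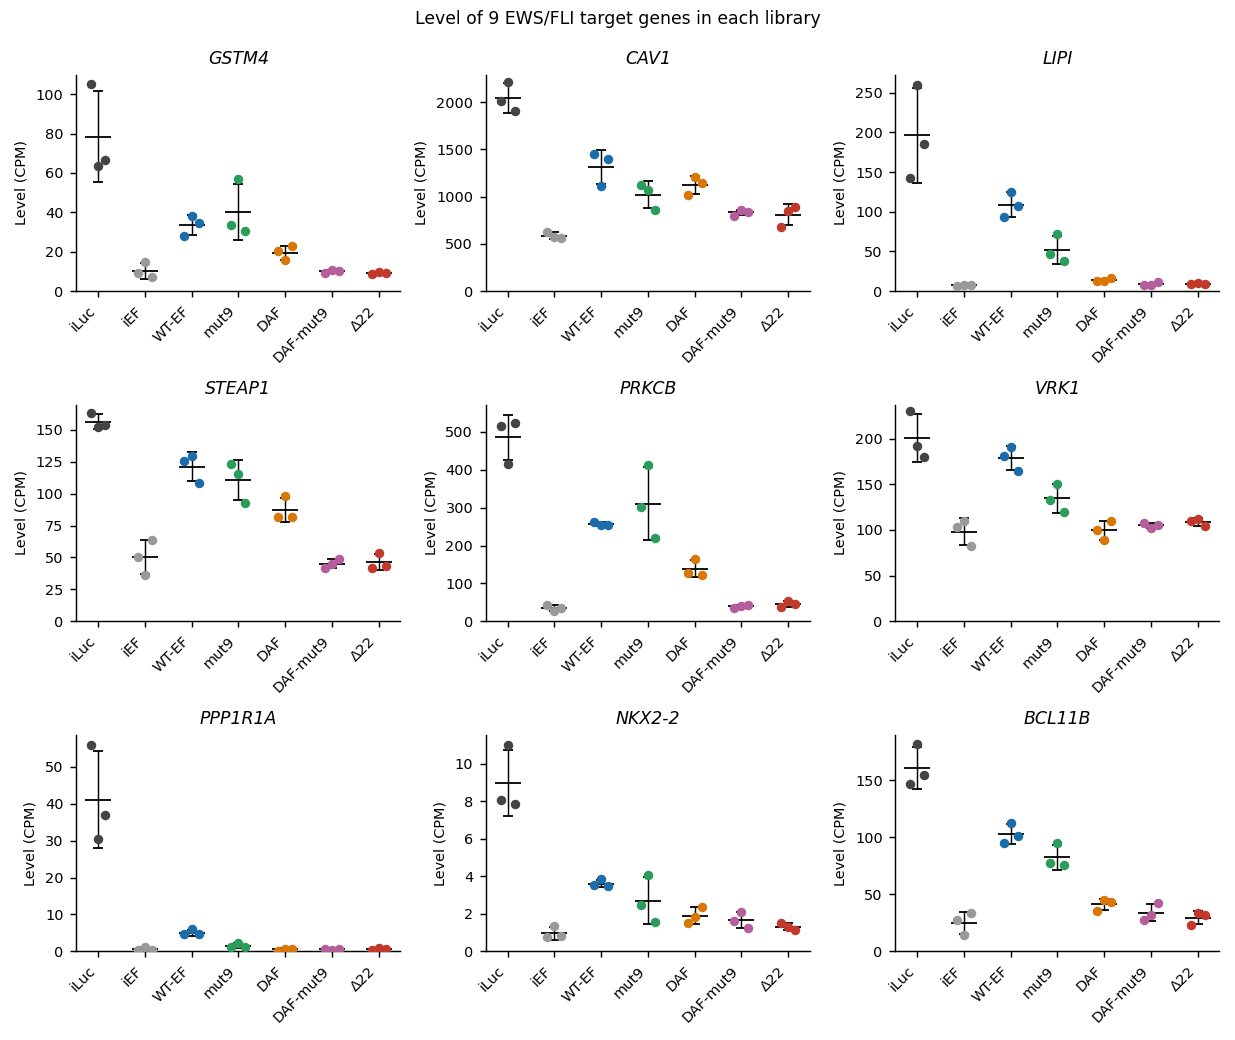
Level of 9 of the 10 genes in each library (CPM, axes from 0), by group; points are libraries in the order of replicate 1, 2 and 3, and the bar and whiskers are the mean and SD of 3. iLuc has the highest mean in all 9 panels, and the level with DAF lies above every iEF library in 7 panels, all but VRK1 and PPP1R1A.

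**Figure D3:**
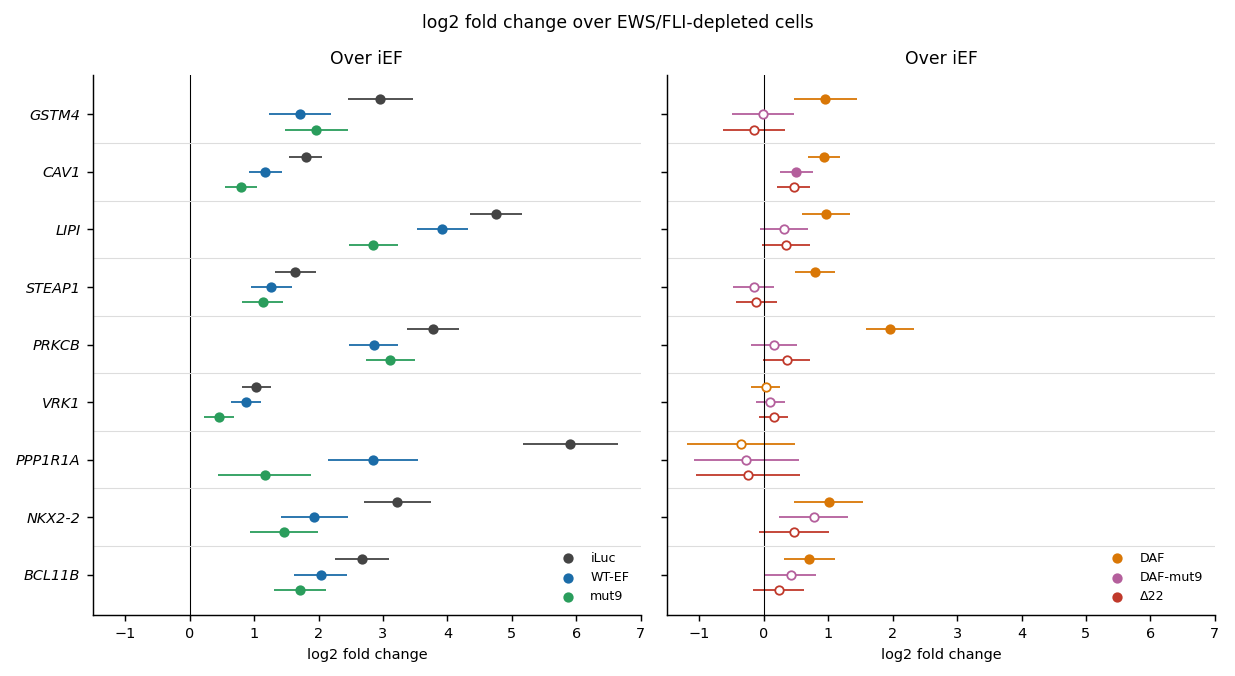
log2 fold change of each gene over iEF in the other 6 groups, with 95% intervals; filled points have an adjusted p-value below 0.05. Every point in the left panel (iLuc, WT-EF, mut9) is filled and right of 0, whereas in the right panel 7 DAF points, 1 DAF-mut9 point and no Δ22 point are filled.

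NKX2-2 and BCL11B encode transcription factors. NKX2-2 (ENSG00000125820, chromosome 20, 21491655 to 21494702, minus strand) encodes a homeodomain transcriptional repressor that acts in neural development, and it is used in diagnosis of this tumour. Its level was 8.07, 11 and 7.87 CPM in iLuc, 0.747, 1.38 and 0.811 CPM in iEF, and 3.53, 3.85 and 3.46 CPM with WT-EF. It was 2.5, 4.05 and 1.57 CPM with mut9, 1.5, 1.81 and 2.38 CPM with DAF, 1.64, 2.09 and 1.23 CPM with DAF-mut9, and 1.51, 1.28 and 1.16 CPM with Δ22. The iLuc and WT-EF libraries therefore stood clear of iEF and of each other, while DAF-mut9 and Δ22 overlapped iEF. The log2 fold change over iEF was 3.22 ± 0.27 (SE) in iLuc (adjusted p = 4.09e-09), 1.93 ± 0.27 with WT-EF (1.03e-05), 1.46 ± 0.27 with mut9 (0.000596) and 1.01 ± 0.27 with DAF (0.0265). With DAF-mut9 it was 0.78 ± 0.27 and did not pass (0.145). The DAF call rested on single libraries: it was lost without iEF replicate 1 (0.88), iEF replicate 3 (0.99) or DAF replicate 3 (0.66), and in the fit with no replicate block (0.97); in all, 6 of 28 alternatives lost it. Exons of NKX2-2 share 933 of 2123 bases with antisense transcripts, and without a stated strand setting reads of the pair cannot be told apart, so its values are uncertain. The antisense gene NKX2-2-AS1 was listed at 0 in all 21 libraries.

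BCL11B (ENSG00000127152, chromosome 14, 99635624 to 99738534, minus strand) is a zinc-finger transcription factor best known from T cell and neuron development. It ranged from 146 to 181 CPM in iLuc, 14.4 to 33.5 CPM in iEF, 94.8 to 113 CPM with WT-EF and 75.4 to 94.7 CPM with mut9. DAF libraries held 35.8, 44.7 and 43.1 CPM, above each of the iEF libraries, whereas DAF-mut9 (27.9 to 42 CPM) and Δ22 (23.5 to 33.8 CPM) overlapped iEF. Its log2 fold change over iEF was 2.68 ± 0.21 in iLuc (adjusted p = 2.24e-09), 2.03 ± 0.21 with WT-EF (2.59e-07), 1.72 ± 0.21 with mut9 (6e-06) and 0.71 ± 0.2 with DAF (0.0374). The DAF call was lost without iEF replicate 2 (0.38), the lowest of the iEF libraries, and without any one of the DAF libraries (0.65 to 0.74), and in the fit with no replicate block (0.71). Limma on the ComBat-adjusted values (0.54) and the fit of only the compared groups (0.78) also lost it, 7 of 28 alternatives in all. No GGAA tract of the stated length lies within 100000 bases of the BCL11B start.

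PRKCB, VRK1 and PPP1R1A act in protein phosphorylation. PRKCB (ENSG00000166501, chromosome 16, 23847304 to 24231932, plus strand) encodes protein kinase C beta, a calcium- and lipid-activated kinase. Its level was 516, 416 and 524 CPM in iLuc and 42.5, 28.3 and 35.2 CPM in iEF. WT-EF brought it to 262, 253 and 255 CPM, mut9 to 301, 412 and 219 CPM, and DAF to 128, 164 and 123 CPM. DAF-mut9 libraries, at 36.1, 40.8 and 42 CPM, and Δ22 libraries, at 38.5, 53.7 and 44.7 CPM, overlapped iEF. The DAF libraries thus lay between those of DAF-mut9 and Δ22 below and those of WT-EF and mut9 above, with no overlap. For PRKCB the log2 fold change over iEF was 3.78 ± 0.2 in iLuc (adjusted p = 6.57e-12), 2.85 ± 0.2 with WT-EF (1.26e-09), 3.11 ± 0.2 with mut9 (1.07e-09) and 1.96 ± 0.19 with DAF (1.55e-06), the largest DAF value of the list. As a share of iLuc in the same replicate set, WT-EF stood at 53.4% ± 6.58, mut9 at 66.3% ± 29.5, DAF at 29.2% ± 8.87 and iEF at 7.25% ± 0.847 (SD, n = 3). All PRKCB calls of the 13 comparisons were kept in every alternative.

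VRK1 (ENSG00000100749, chromosome 14, 97263641 to 97421183, plus strand), a nuclear serine/threonine kinase tied to cell division, had the smallest change of the 9 between iLuc and iEF. It stood at 230, 192 and 180 CPM in iLuc, 103, 110 and 82 CPM in iEF, 181, 191 and 165 CPM with WT-EF and 133, 151 and 120 CPM with mut9. With DAF it was 100.3, 89.1 and 109 CPM, inside the iEF range. Here WT-EF overlapped iLuc, and DAF, DAF-mut9 and Δ22 overlapped iEF. Over iEF the log2 fold change of VRK1 was 1.03 ± 0.12 in iLuc (adjusted p = 3.26e-07), 0.87 ± 0.12 with WT-EF (6.72e-06), 0.46 ± 0.12 with mut9 (0.00946) and 0.03 ± 0.12 with DAF (0.94), the last with a 95% interval from -0.2 to 0.26. The mut9 call was lost without iEF replicate 3 (0.34) or mut9 replicate 2 (0.37), and in the fit of only the compared groups (0.44).

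PPP1R1A (ENSG00000135447, chromosome 12, 54969171 to 54982443, minus strand) encodes inhibitor-1 of protein phosphatase 1. It had the widest range of the list, with 55.8, 30.5 and 36.8 CPM in iLuc and 0.514, 1.16 and 0.513 CPM in iEF. WT-EF raised it only to 4.64, 6 and 4.62 CPM and mut9 to 1.25, 2.31 and 1.25 CPM. DAF left it at 0.218, 0.754 and 0.719 CPM, which were 8, 25 and 23 counts. The WT-EF libraries were therefore above all iEF libraries and below all iLuc libraries by wide margins, and DAF overlapped iEF. The log2 fold change over iEF was 5.91 ± 0.38 in iLuc (adjusted p = 8.02e-11), 2.85 ± 0.36 with WT-EF (3.02e-06), 1.17 ± 0.37 with mut9 (0.0394) and -0.36 ± 0.43 with DAF (0.738). WT-EF reached 13.5% ± 5.73 of iLuc in the same replicate set, the lowest share of the 9 genes. The mut9 call was lost without iEF replicate 1 (1.01) or 3 (0.98), WT-EF replicate 1 or 3 (1.15 each), or mut9 replicate 1 (1.25) or 2 (0.9), and in the fit with no replicate block (1.17). Exons of PPP1R1A share 443 bases with PDE1B on the other strand, so its values are uncertain.

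CAV1, STEAP1 and CD99 encode membrane proteins. CAV1 (ENSG00000105974, chromosome 7, 116165048 to 116201233, plus strand) encodes caveolin-1, the coat protein of caveolae. It was counted at 2016, 2209 and 1903 CPM in iLuc, 626, 570.0 and 560 CPM in iEF, 1447, 1109 and 1393 CPM with WT-EF, and 1127, 1073 and 856 CPM with mut9. DAF gave 1013, 1207 and 1145 CPM, DAF-mut9 gave 799, 858 and 838 CPM, and Δ22 gave 683, 845 and 892 CPM. All 15 libraries with a construct lay above all 3 iEF libraries, and DAF overlapped both WT-EF and mut9. The log2 fold change over iEF was 1.8 ± 0.13 in iLuc (adjusted p = 6.94e-10), 1.17 ± 0.13 with WT-EF (7.27e-07), 0.94 ± 0.13 with DAF (0.000102) and 0.8 ± 0.13 with mut9 (0.000173). It was 0.51 ± 0.13 with DAF-mut9 (0.033) and 0.46 ± 0.13 with Δ22 (0.0619), values that lie side by side on the 2 sides of the threshold. The DAF-mut9 call was lost without iEF replicate 2 (0.47) or 3 (0.48) or any one DAF-mut9 library (0.49 to 0.54), and Δ22 was called without iLuc replicate 3 or WT-EF replicate 2 (0.46 each) or Δ22 replicate 1 (0.59).

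STEAP1 (ENSG00000164647, chromosome 7, 89783770 to 89794143, plus strand) encodes a cell-surface protein of the metalloreductase family. Its libraries held 152 to 163 CPM in iLuc, 36.5 to 63.5 CPM in iEF, 109 to 130 CPM with WT-EF, 93 to 124 CPM with mut9 and 81.9 to 98.3 CPM with DAF. DAF-mut9, at 41.6 to 49 CPM, and Δ22, at 42.1 to 53.7 CPM, lay within the iEF range. The log2 fold change over iEF was 1.64 ± 0.16 in iLuc (adjusted p = 5.95e-08), 1.27 ± 0.16 with WT-EF (4.12e-06), 1.14 ± 0.16 with mut9 (4.06e-05) and 0.8 ± 0.16 with DAF (0.00359), and all of these calls were kept in every alternative. Relative to iLuc in the same replicate set, DAF left STEAP1 at 56% ± 7.69 and iEF at 32.1% ± 8.63 (SD, n = 3).

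CD99 (ENSG00000002586, chromosome X, 2609228 to 2659350, plus strand), the surface glycoprotein used to stain Ewing sarcoma, was barely counted. Its libraries held 0 to 8 counts, its second listing in the table held 0 to 5, and their sum ran from 1 to 8. No CD99 comparison was called, and no fold change is given because most libraries lie at or under a floor of 3 counts. CD99 lies in the first pseudoautosomal region, which the genome carries in 2 copies. Of the 15 protein-coding genes of that region in the table, 1 (CD99 itself) averaged 1 or more counts per library, against 15 of 23 in the stretch of the X chromosome that follows it up to position 10000000, where the median of the mean counts was 26.7. Low counts were thus shared by the whole region, and whether reads that align to both copies were left out was not tested. The level of CD99 in these cells cannot be read from this table.

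LIPI and GSTM4 encode enzymes. LIPI (ENSG00000188992, chromosome 21, 15481134 to 15583276, minus strand) encodes a membrane-associated phospholipase known as a cancer-testis antigen of this tumour. It stood at 143, 260.3 and 186 CPM in iLuc, 5.77, 8.1 and 7.7 CPM in iEF, 93.9, 125 and 107 CPM with WT-EF and 47, 71.8 and 37.8 CPM with mut9. DAF gave 12.3, 13 and 16.1 CPM, DAF-mut9 7.83, 7.77 and 10.8 CPM, and Δ22 8.31, 10.6 and 8.28 CPM. LIPI ordered iLuc, WT-EF, mut9 and DAF with no overlap of libraries between neighbours, and DAF stood above Δ22 in every library. Over iEF the log2 fold change of LIPI was 4.75 ± 0.21 in iLuc (adjusted p = 4.33e-13), 3.92 ± 0.2 with WT-EF (3.28e-11), 2.85 ± 0.19 with mut9 (2.54e-09) and 0.96 ± 0.19 with DAF (0.00267). As a share of iLuc in the same replicate set, WT-EF reached 57.2% ± 8.88, mut9 27% ± 6.31 and DAF 7.43% ± 2.1, where iEF stood at 3.77% ± 0.568 (SD, n = 3). The DAF call was lost in 1 alternative, limma on the ComBat-adjusted values (0.73).

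GSTM4 (ENSG00000168765, chromosome 1, 110198721 to 110208118, plus strand) encodes a glutathione S-transferase. Its libraries held 105.1, 63.6 and 66.8 CPM in iLuc, 9.1, 15 and 7.11 CPM in iEF, 28, 37.9 and 34.4 CPM with WT-EF, and 33.6, 56.8 and 30.7 CPM with mut9. With DAF it was 20.2, 15.5 and 22.7 CPM, with DAF-mut9 9.27, 10.6 and 10.4 CPM, and with Δ22 8.53, 9.6 and 9.34 CPM. The lowest DAF library, replicate 2, was close to the highest iEF library, which was also replicate 2. For GSTM4 the log2 fold change over iEF was 2.96 ± 0.26 in iLuc (adjusted p = 7.74e-09), 1.71 ± 0.25 with WT-EF (1.86e-05), 1.96 ± 0.25 with mut9 (9.91e-06) and 0.95 ± 0.25 with DAF (0.0196). The DAF call was lost without iEF replicate 1 (0.88) or 3 (0.75) or DAF replicate 1 (0.9) or 3 (0.76). It was also lost with limma on the ComBat-adjusted values (0.73) and with only the compared groups (0.96), 6 of 28 alternatives in all. GSTM genes are close copies of one another, and reads that several of them share make GSTM4 uncertain.

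WT-EF did not bring most of the genes back to the level of iLuc. Of the 10 genes, 7 were lower with WT-EF than in iLuc (NKX2-2, GSTM4, CAV1, PRKCB, BCL11B, LIPI and PPP1R1A), where 8.52% of all genes tested were lower. The gap was widest for PPP1R1A, at a log2 fold change of -3.06 ± 0.31 (adjusted p = 4.97e-07), and for the other 6 it lay between -1.29 for NKX2-2 and -0.63 for CAV1. For STEAP1 the value was -0.37 ± 0.16 (0.122) and for VRK1 -0.16 ± 0.11 (0.389), with 95% intervals from -0.68 to -0.06 and from -0.39 to 0.06. BCL11B, at -0.64 ± 0.2 (0.0288), was lost without iLuc replicate 1 (-0.62) or 2 (-0.53) or any one WT-EF library (-0.68 to -0.55), while STEAP1 was called without iEF replicate 2 (-0.37).

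Between mut9 and WT-EF, VRK1 (log2 fold change -0.41 ± 0.11, adjusted p = 0.0344), LIPI (-1.07 ± 0.18, 0.000773) and PPP1R1A (-1.68 ± 0.32, 0.00267) were lower with mut9, 3 of 10 genes against 1.2% of all genes tested. GSTM4 (0.25 ± 0.24, 0.661) and PRKCB (0.26 ± 0.18, 0.515) had values above 0 that did not pass, with 95% intervals from -0.21 to 0.72 and from -0.1 to 0.62. Replicate 2 was the highest mut9 library for 7 of the 9 counted genes and replicate 3 the lowest for 8. In WT-EF and in Δ22, replicate 2 was likewise the highest for 7 of the 9. The mut9 libraries of PRKCB ran from 219 to 412 CPM. The VRK1 call was lost without any one of the WT-EF libraries (-0.46 to -0.4) or mut9 replicate 1 (-0.4) or 3 (-0.37), and in the fit with no replicate block (-0.41). CAV1, at -0.37 ± 0.13 (0.0999), was called without WT-EF replicate 2 (-0.54).

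With tyrosines of the amino-terminal EWS repeats changed in the full-length fusion, 8 of the 10 genes were lower. CAV1 was not called, and CD99 had too few counts to read. Between DAF and WT-EF the share of all genes called lower was 10.6%. PPP1R1A (log2 fold change -3.2 ± 0.37, adjusted p = 1.83e-06) and LIPI (-2.96 ± 0.19, 2.59e-09) fell furthest, followed by BCL11B (-1.33 ± 0.2, 4.9e-05). NKX2-2, PRKCB, VRK1, GSTM4 and STEAP1 lay between -0.92 and -0.47. CAV1 was at -0.23 ± 0.13 (0.212), with a 95% interval from -0.49 to 0.02, and was called without WT-EF replicate 2 (-0.4). NKX2-2 was lost without DAF replicate 1 (-0.79) or 2 (-0.74), GSTM4 without WT-EF replicate 2 (-0.75) or 3 (-0.68) or DAF replicate 1 (-0.8) or 2 (-0.53), and STEAP1 without WT-EF replicate 1 (-0.46) or 2 (-0.45), DAF replicate 1 (-0.42) or 3 (-0.45), or mut9 replicate 2 (-0.45).

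The shortened mut9 has no tyrosine changed to alanine, but its deletion leaves it fewer tyrosines than WT-EF. With mut9, 6 of the 10 genes stood above DAF, against 3.13% of all genes tested. LIPI led with a log2 fold change of 1.9 ± 0.18 (adjusted p = 3.45e-06), then PPP1R1A (1.52 ± 0.39, 0.0206), PRKCB (1.16 ± 0.18, 0.00044), GSTM4 (1.01 ± 0.24, 0.0129), BCL11B (1.01 ± 0.2, 0.00357) and VRK1 (0.43 ± 0.12, 0.0283). CAV1 stood at -0.14 ± 0.13 (0.627), the only one of the 9 counted genes with a value below 0. Without mut9 replicate 2 the calls fell to 3, with GSTM4 at 0.73, VRK1 at 0.33 and PPP1R1A at 1.24 no longer past the threshold. There were also 3 calls without DAF replicate 2, where GSTM4 was 0.77, VRK1 0.32 and PPP1R1A 1.69. VRK1 was also lost without DAF replicate 1 (0.4) or mut9 replicate 1 (0.46), and PPP1R1A without DAF replicate 1 (1.14).

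DAF stood above Δ22 at 3 of the 10 genes, where 0.789% of all genes tested were higher. The log2 fold change was 1.6 ± 0.19 for PRKCB (adjusted p = 5.27e-05), 1.11 ± 0.25 for GSTM4 (0.0287) and 0.91 ± 0.16 for STEAP1 (0.004). LIPI (0.62 ± 0.18, 0.171), NKX2-2 (0.54 ± 0.27, 0.619), BCL11B (0.48 ± 0.2, 0.481) and CAV1 (0.48 ± 0.13, 0.104) had values above 0 that did not pass. VRK1 was at -0.12 ± 0.11 (0.873) and PPP1R1A at -0.12 ± 0.43 (0.989), and the 95% interval of the latter, from -0.96 to 0.73, is wide. The GSTM4 call was lost without any one Δ22 library (1.07 to 1.19) or DAF replicate 1 (1.06) or 3 (0.9), and in the fit with no replicate block (1.09).

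With tyrosine changes placed within mut9, 6 of the 10 genes were lower, against 4.68% of all genes tested. Log2 fold changes were -2.96 ± 0.2 for PRKCB (adjusted p = 6.88e-09), -2.54 ± 0.19 for LIPI (2.17e-08), -1.98 ± 0.25 for GSTM4 (1.37e-05), -1.44 ± 0.38 for PPP1R1A (0.0185), -1.3 ± 0.2 for BCL11B (0.000176) and -1.29 ± 0.16 for STEAP1 (1.36e-05). VRK1 (-0.35 ± 0.12, 0.0596), NKX2-2 (-0.69 ± 0.26, 0.104) and CAV1 (-0.29 ± 0.13, 0.191) did not pass. PPP1R1A was lost without mut9 replicate 2 (-1.18) or DAF-mut9 replicate 1 (-1.46) or 2 (-1.1). NKX2-2 was called without mut9 replicate 3 (-0.92), and VRK1 without iLuc replicate 3, iEF replicate 2 or DAF replicate 2 (-0.35 each).

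DAF-mut9 was not told apart from Δ22 at any of the 10 genes, and 0% of all genes tested were called between them by edgeR. The 9 counted genes lay between -0.2 ± 0.18 for PRKCB and 0.3 ± 0.27 for NKX2-2. The 95% intervals ran from -0.56 to 0.16 for PRKCB and from -0.86 to 0.8 for PPP1R1A, so a difference as large as that between DAF and Δ22 at PRKCB lies outside the first interval while the second is too wide to bound a small change. At an unadjusted p-value below 0.05, 0 of the 10 genes and 671 of all genes stood out in the edgeR test. DESeq2 also called 0 genes, with 429 at an unadjusted p-value below 0.05, as did limma on the ComBat-adjusted values, with 808, and edgeR with no low-count filter called 14 genes, none of them among the 10.

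**Figure D4:**
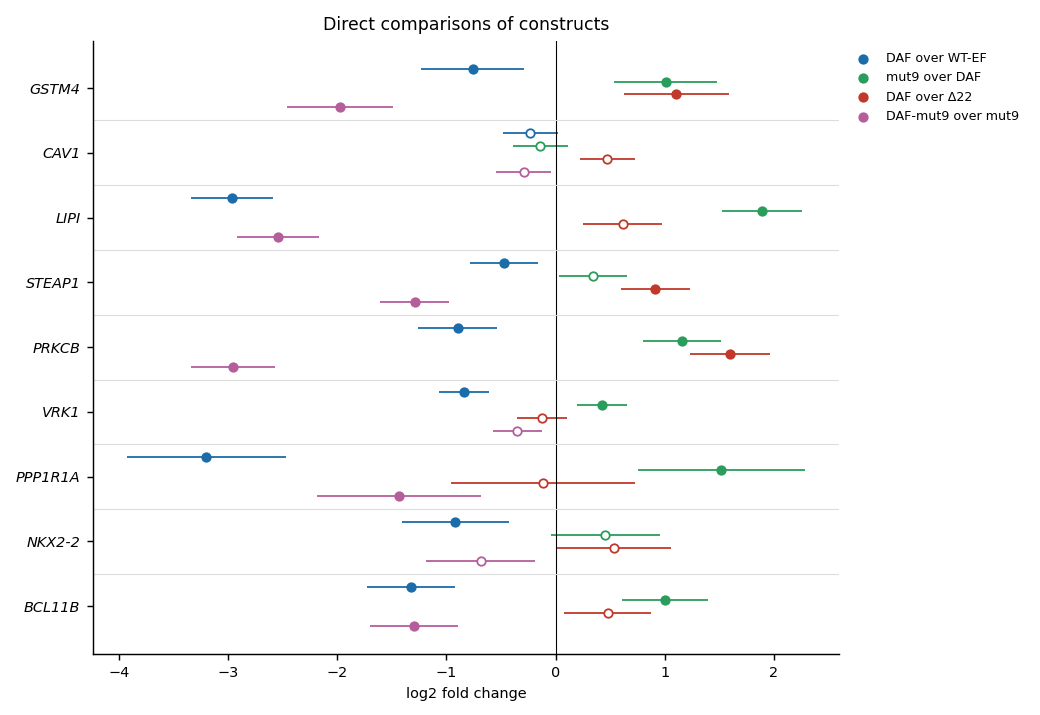
log2 fold change between pairs of constructs for 9 of the 10 genes, with 95% intervals; filled points have an adjusted p-value below 0.05. DAF lies below WT-EF at 8 genes and above Δ22 at 3, and CAV1 has no filled point.

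The order of the group means differed between the genes. iLuc was the highest group for all 9 counted genes and differed from the next group for 7, the exceptions being STEAP1 (adjusted p = 0.122) and VRK1 (0.389). For GSTM4 and PRKCB the next group was mut9 and then WT-EF, which did not differ beyond their spread (0.661 and 0.515), and for the other 7 it was WT-EF. DAF was followed by a group that it exceeded beyond the spread for GSTM4 (over iEF, 0.0196), STEAP1 (over iEF, 0.00359) and PRKCB (over Δ22, 5.27e-05). For CAV1 no neighbours below iLuc differed, down to Δ22 over iEF (0.0619), although the ends of that chain did. For PPP1R1A the last group that differed from its neighbour was mut9 over iEF (0.0394), and iEF, Δ22, DAF-mut9 and DAF, at 0.564 to 0.728 CPM on average, did not differ from their neighbours.

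The lists of other targets were also chosen with earlier results of these data known, so their counts are a description only. Of 16 other activated targets of EWS/FLI, 14 were higher than iEF in iLuc, 14 in WT-EF, 12 in mut9, 6 in DAF, 1 in DAF-mut9 and 0 in Δ22. Their median log2 fold changes were 2.18, 1.13, 0.94, 0.52, 0.05 and 0.05. Of all genes tested, 18.7%, 11.4%, 6.22%, 3.41%, 1.26% and 0.881% were called higher, in the same order. By the edgeR test, 2 of the 16 (FCGRT and NPY1R) had an unadjusted p-value below 0.05 and a value above 0 with Δ22, where DESeq2 called 0 and edgeR with no low-count filter called 1. The 6 raised by DAF were FCGRT, NPY1R, PAX7, IL1RAP, RBM11 and JAK1. FCGRT, which encodes the neonatal Fc receptor, had log2 fold changes of 3.82 ± 0.19 in iLuc, 2.57 ± 0.18 with WT-EF, 2.99 ± 0.19 with mut9 and 2.21 ± 0.18 with DAF, and it was higher with DAF than with Δ22 by 1.74 ± 0.18 (adjusted p = 1.19e-05). EZH2, the histone H3 lysine 27 methyltransferase, was raised by WT-EF (0.61 ± 0.12) and mut9 (0.64 ± 0.12) and stood at -0.01 ± 0.12 with DAF (0.977). NR0B1, a nuclear receptor, was raised by WT-EF and by mut9 (1.57 ± 0.27), and was lower than iEF with DAF-mut9 (-1.05 ± 0.28, 0.0374) and Δ22 (-1.03 ± 0.27, 0.0473). With DAF it was not called over iEF but was higher than with Δ22.

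Of 8 repressed targets, all were lower in iLuc than in iEF, 5 were lower in WT-EF, 4 in mut9, 1 in DAF, 0 in DAF-mut9 and 0 in Δ22, by the edgeR test. Over all genes tested, the share called lower than iEF was 22.4% in iLuc, 16.9% in WT-EF, 8.33% in mut9, 4.02% in DAF, 2.14% in DAF-mut9 and 1.79% in Δ22. With DAF-mut9 and with Δ22, 1 of the 8 (LOX) had a value below 0 at an unadjusted p-value below 0.05, and in either group DESeq2 called 0 lower and edgeR with no low-count filter called 1. LOX, lysyl oxidase, was lower with DAF (-1.01 ± 0.26, adjusted p = 0.0183). DKK1, a secreted Wnt inhibitor, was higher than iEF with DAF (1.15 ± 0.27, 0.00951), DAF-mut9 (1.2 ± 0.27, 0.0151) and Δ22 (1.43 ± 0.27, 0.00593), and was lower in iLuc (-3.89 ± 0.31). IGFBP3, a binding protein of insulin-like growth factors, was lower with mut9 than with DAF (-1.35 ± 0.24, 0.00108).

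The nearest protein-coding genes on either side were also higher at several of the loci. Of the 18 neighbours, which include RBM11 from the activated targets above, 14 were tested. By the edgeR test, 11 of these were higher than iEF in iLuc, 8 in WT-EF, 7 in mut9, 4 in DAF, 0 in DAF-mut9 and 0 in Δ22. Of all genes tested, 18.7%, 11.4%, 6.22%, 3.41%, 1.26% and 0.881% were called higher, in the same order. In each of the last pair of groups 2 neighbours (CAV2 and SETD3) had a value above 0 at an unadjusted p-value below 0.05, where DESeq2 called 0 and edgeR with no low-count filter called 1. RBM11, which encodes an RNA-binding splicing regulator and starts on the far side of the LIPI tract, lies 5.17 kb from LIPI and had log2 fold changes over iEF of 3.25 ± 0.17 in iLuc, 2.4 ± 0.16 with WT-EF, 1.73 ± 0.16 with mut9 and 0.54 ± 0.16 with DAF (adjusted p = 0.0408). The same tract of 11 repeats lies within 5000 bases of the starts of both genes. STEAP2, 2.76 kb from STEAP1, was higher with DAF by 1.6 ± 0.15 over iEF (1.21e-06) and by 1.46 ± 0.15 over Δ22 (1.19e-05). CAV2, 16.5 kb from CAV1, was higher with DAF by 0.93 ± 0.19 (0.00354), whereas MET, the hepatocyte growth factor receptor 111 kb on the other side, was lower than iEF in all 6 groups, from -4.72 ± 0.22 in iLuc to -0.82 ± 0.19 with Δ22 (0.0223). SETD3, next to BCL11B, was lower than iEF in iLuc and higher with DAF. In iLuc, 2 of the 14 neighbours (SETD3 and MET) were thus lower, beside 22.4% of all genes tested. In every other group MET alone was called lower. XG, next to CD99 at 10.7 kb, was higher in iLuc by 4.96 ± 0.24. PDE1B, which overlaps PPP1R1A, was higher in iLuc (3.67 ± 0.3), with WT-EF (2.34 ± 0.3) and with mut9 (1.37 ± 0.31) and stood at 0.28 ± 0.33 with DAF (0.734). Its exons share 443 bases with PPP1R1A on the other strand, so the values of PDE1B are uncertain too.

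**Figure D5:**
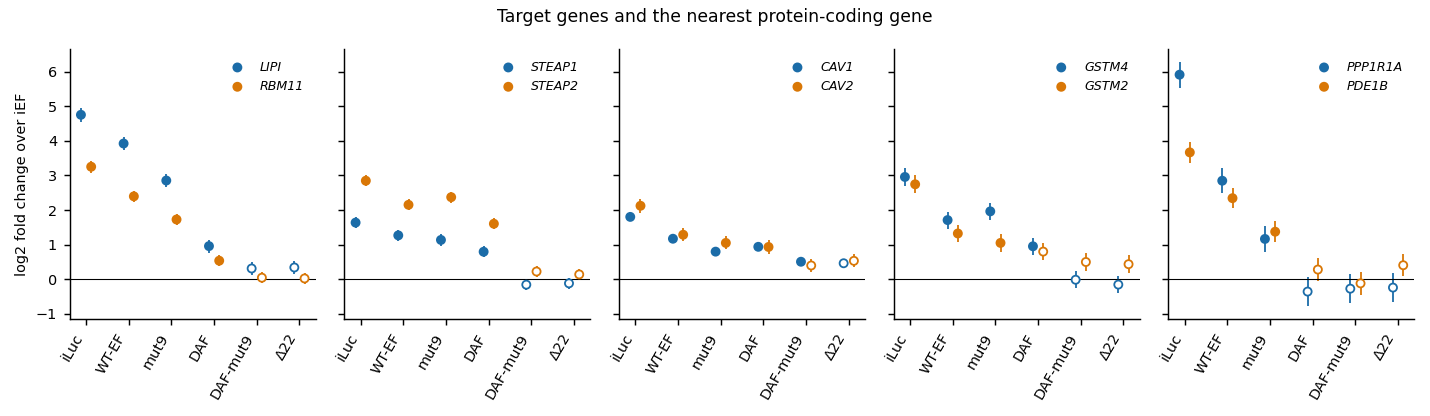
log2 fold change over iEF (whiskers 1 SE, filled points with an adjusted p-value below 0.05) of 5 of the genes and of a neighbouring protein-coding gene. RBM11 lies below LIPI and STEAP2 above STEAP1 in iLuc, WT-EF, mut9 and DAF, and with DAF both CAV1 and CAV2 stand at a log2 fold change of 0.93 to 0.94. PPP1R1A and PDE1B share exon bases on opposite strands, so the values of that pair are uncertain.

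Of 21 paralogues, 19 were tested. Of these, 9 were higher and 5 lower in iLuc than in iEF, and 3 were higher and 1 lower with DAF, beside 18.7% higher and 22.4% lower of all genes in iLuc and 3.41% and 4.02% with DAF. GSTM2, STEAP2, CAV2 and NKX2-4 are also among the neighbours counted above. PRKCA, the paralogue of PRKCB, was among those lower in iLuc, with WT-EF, with mut9 and with DAF. Among the genes most likely to exchange reads with GSTM4, GSTM2 rose by 2.74 ± 0.26 in iLuc, GSTM3 by 1.62 ± 0.19 and GSTM1 by 1.44 ± 0.18 on the log2 scale, and with DAF their values were 0.8 ± 0.25 (adjusted p = 0.0584), 0.49 ± 0.19 (0.132) and 0.28 ± 0.18 (0.418); GSTM5 was called in none of the 6 groups. STEAP1B was not called in iLuc (0.03 ± 0.13, 0.872) and was called with WT-EF, DAF, DAF-mut9 and Δ22, at 0.37 to 0.59.

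The genes whose level ran most like each of the 9 were found over the 21 libraries among 10779 genes with a mean of at least 5 CPM, as a description that rests on the shared groups, libraries and depth. Pearson's r of log2 CPM was 0.99 for LIPI with ITM2A, which encodes a transmembrane protein, and 0.99 for PPP1R1A with SOX1, a neural transcription factor. It was 0.98 for PRKCB with STEAP2, 0.97 for GSTM4 with EPB41, for STEAP1 with GRIK2, for VRK1 with AGBL5 and for CAV1 with P2RY1, and 0.96 for NKX2-2 with OTX2 and for BCL11B with SMARCC1. For CD99 the highest r was 0.64, with ANKRD36C, at counts too low to read. Within the list, STEAP1 and PRKCB ran closest (r = 0.97), and STEAP1 and VRK1 least alike among the 9 (r = 0.77).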

How the data were processed

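Libraries of total RNA (ScriptSeq kit) from A673 cells were sequenced by the authors, aligned to hg19 with STAR and counted per gene with htseq-count (intersection-strict). The STAR version was 2.5.1b in the submitters' processing notes; the annotation release and the strand setting are not given in the sources used here. The deposited counts are raw whole numbers per gene. A second deposited table holds the authors' signal values, which are these counts adjusted with ComBat for the replicate set. A table of the authors' own fold changes and p-values was not used. Column names that begin with mut9d were read as DAF-mut9.

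Genes with a mean of at least 1 count were fitted with edgeR (4.0.16, R 4.3.3), TMM scaling, a quasi-likelihood test with group and replicate set as terms over all 21 libraries, and Benjamini-Hochberg adjustment over the 30549 genes tested. The block for replicate set follows the authors' ComBat step. Deviations from the group means correlated by -0.03 to 0.23 between libraries with the same number (median 0.08, 63 pairs), and by a median of -0.04 between different numbers. The 95% intervals take the normal quantile times the SE. Alternatives were DESeq2 (1.42.0), RLE scaling, other count filters, no replicate block, the compared groups alone, limma (3.58.1) on log2 of the ComBat-adjusted values plus 1, and leaving out each library. Losses and gains of calls given gene by gene cover the libraries left out and the replicate block, and the other alternatives only where named. Intervals cover the error of these libraries only. GGAA tracts were searched on both strands of GRCh37. Steps were tested on simulated data. The 10 genes and all lists were chosen with earlier results of these data known; named genes are the 10, the gene most alike to each, and members of the lists of other targets, paralogues and neighbours.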

Additional observations from a re-analysis of the deposited data

How the results depend on the processing

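Over 13 comparisons of the 9 counted genes, 3154 of 3263 values under an alternative kept their side of the threshold. Of the rest, 80 lost a call, 29 gained one and 0 reversed. Among the 3154, 31 changed sign without being called in either fit. The number of genes called moved by over 1.5 times in these cases: DAF over iEF gave 3 with limma on ComBat-adjusted values and 4 with only the compared groups (7 in the report); DAF-mut9 over iEF gave 0 with limma (1); Δ22 over iEF gave 1 with DESeq2 and 1 with no low-count filter (0); mut9 against WT-EF gave 5 with only the compared groups (3); DAF over Δ22 gave 6 with no low-count filter and 5 with only the compared groups (3). Leaving out each library in turn gave 9 to 9 calls for iLuc, 9 to 9 for WT-EF, 7 to 9 for mut9, 4 to 7 for DAF, 0 to 1 for DAF-mut9 and 0 to 1 for Δ22 over iEF, 6 to 8 for WT-EF against iLuc, 2 to 3 for mut9 against WT-EF, 5 to 8 for DAF against WT-EF, 3 to 6 for mut9 against DAF, 2 to 3 for DAF against Δ22, 5 to 7 for DAF-mut9 against mut9 and 0 to 0 for DAF-mut9 against Δ22. Without the replicate block, 5 calls were lost: NKX2-2 (0.97) and BCL11B (0.71) for DAF over iEF, GSTM4 (1.09) for DAF over Δ22, VRK1 (-0.41) for mut9 against WT-EF and PPP1R1A (1.17) for mut9 over iEF; it changed no other call of the 10 genes. LIPI lost 3 calls with limma: DAF over iEF (0.73), WT-EF against iLuc (-0.77) and mut9 against WT-EF (-1.1). PPP1R1A had no ComBat-adjusted value here. The cause was not tested.

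Over all genes, calls for DAF against Δ22 went from 297 to 475 with DESeq2, 178 with no replicate block, 906 with no low-count filter and 682 with only the compared groups. For DAF-mut9 over iEF they went from 1038 to 684 with no replicate block and 2243 with no filter, and for Δ22 over iEF from 817 to 508 and 2144. Calls for mut9 against DAF went from 2018 to 3082 and for DAF-mut9 against Δ22 from 0 to 14 with no filter. With only the compared groups, DAF over iEF went from 2268 to 1510, mut9 against WT-EF from 1878 to 5116 and DAF-mut9 against mut9 from 3003 to 4848. Limma on ComBat-adjusted values moved the share of higher calls by over 10 percentage points in 8 comparisons, for DAF against WT-EF from 57.4% to 32.1% and for mut9 against WT-EF from 80.5% to 39.9%. Leaving out each library in turn gave, over all genes, 2688 to 5155 calls for mut9, 1312 to 2862 for DAF, 323 to 1467 for DAF-mut9 and 185 to 1123 for Δ22 over iEF, 696 to 2474 for mut9 against WT-EF, 876 to 2662 for mut9 against DAF, 170 to 381 for DAF against Δ22 and 1754 to 3589 for DAF-mut9 against mut9. The lowest of these counts came without mut9 replicate 2, DAF replicate 1, DAF-mut9 replicate 1, Δ22 replicate 3, WT-EF replicate 2, mut9 replicate 2, Δ22 replicate 1 or DAF replicate 2, and mut9 replicate 2, in that order, and all the highest without iLuc replicate 3. In the other 5 comparisons no library moved the count by over 1.5 times. Dropping the filter moved the median of all genes for iLuc over iEF from 0.01 to 0.15. Genes of few counts, CD99 first and PPP1R1A outside iLuc, are limited by depth.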
